A study of Homo sapiens with 16 samples.

Results

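The 10 genes described here carry out iron handling in almost every human cell: TFRC, STEAP3, SLC11A2 and SLC39A14 for uptake, FTH1, FTL and NCOA4 for storage and release, IREB2 and ACO1 for sensing, and FLVCR1 for haem transport. They were chosen by symbol for these roles, with earlier results of these data known. All 10 were found among the 58051 gene identifiers of the expression table. All 10 also lay among the 13765 genes that were tested, with between 63 and 9660 reads per library. RNA was sequenced from P493-6, an immortalised human B cell line with a MYC transgene that doxycycline represses and an EBNA2 protein that needs oestrogen. It is 1 line, so the results describe that line alone. High MYC cells grew without additives, and medium MYC cells received 0.1 µg/mL doxycycline with 1 µM beta-estradiol from 24 h before treatment. At each MYC level, cells were then given DMSO (controls) or 100 nM IMP1088, which inhibits the N-myristoyltransferases, enzymes that attach the fatty acid myristate to proteins. The labels carry a treatment time of 24 h. Each of the 2 treatments at each of the 2 MYC levels has 4 libraries, which makes 4 groups. The comparisons ask how these genes responded to the inhibitor at each MYC level, whether the response differed between levels, and how they differed between levels. Because additives set the level, effects of MYC itself and of those additives cannot be told apart.

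Cells take up iron mainly as transferrin bound to the transferrin receptor, which is carried into endosomes. There the ferric iron is reduced by STEAP3 and moved to the cytosol by the transporters encoded by SLC11A2 (DMT1) and SLC39A14 (ZIP14). Spare iron is kept in ferritin, a shell of heavy and light chains, and NCOA4 delivers ferritin to lysosomes for breakdown. When iron is scarce, iron regulatory proteins bind RNA hairpins called iron-responsive elements (IREs). A hairpin in the 5′ UTR then blocks translation, as in ferritin, and hairpins in the 3′ UTR protect the mRNA, as in TFRC, so mRNA levels alone do not report ferritin protein.

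The hairpin sequences of ferritin and TFRC are printed because this shared control sets the roles by which their mRNAs are compared below. The search used 1 GENCODE 29 transcript per gene on GRCh38 and covered 9 of the 10 genes. It looked on the transcribed strand for an unpaired C, then 5 bases, then the loop CAGTGN, with the 5 bases on either side of the loop fully paired (5 of 5 pairs, G-U pairs counted). In each line of 28 bases the capitals mark the 6-base loop, and the letters are those of the transcript written as DNA. The first 2 lines are from 5′ UTRs and the 4 TFRC lines from its 3′ UTR.
FTH1, chr11:61967575-61967602, minus strand: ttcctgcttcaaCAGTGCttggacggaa
FTL, chr19:48965335-48965362, plus strand: ctcttgcttcaaCAGTGTttggacggaa
TFRC, chr3:196050980-196051007, minus strand: aattatcggaagCAGTGCcttccataat
TFRC, chr3:196050576-196050603, minus strand: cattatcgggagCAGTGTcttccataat
TFRC, chr3:196050511-196050538, minus strand: ctgtatcggagaCAGTGAtctccatatg
TFRC, chr3:196050464-196050491, minus strand: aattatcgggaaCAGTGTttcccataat
Such a match was present in the 5′ UTR of 0.107% of 18698 genes and in the 3′ UTR of 0.55% of 18915 genes, whose UTRs differ in length. SLC11A2, whose transcripts with a hairpin are known to exist beside others without it, matched with 4 of 5 pairs in its 3′ UTR, as did ACO1 and IREB2.
SLC11A2, chr12:50988270-50988297, minus strand: agccatcagagcCAGTGTgtttctatgg
The gene-level values used here sum all transcripts of SLC11A2, so its forms with and without the hairpin could not be told apart. The shares over all genes above are for 5 of 5 pairs, and none was counted for 4 of 5 pairs. The matches of SLC11A2, ACO1 and IREB2 therefore have no background beside them. A match is a description of the letters, and binding was not measured.

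Library depth ran from 8755296 to 13858534 reads. MYC mRNA, which defines the groups, stood at 31649 ± 2129.7 normalized counts (SD, n = 4) in high MYC controls and at 958.6 ± 48.7 in medium MYC controls. With the inhibitor it stood at 47542 ± 505 (SD, n = 4) at high MYC and at 1382 ± 51.2 at medium MYC, so MYC mRNA moved with the inhibitor too, and its part in the results below was not tested. All 6 B cell markers on a list of them were present, with a summed level of 22714 to 22844 in high MYC controls, 18756 to 19604 with the inhibitor, 35294 to 35906 in medium MYC controls and 31406 to 32740 with the inhibitor. Of 6 erythroid markers none reached a mean of 10 and HBB was at 0 in all 16 libraries, and of 5 markers of iron-recycling macrophages only LYZ passed that mean (40.7 to 69.9). In bulk RNA, fewer cells of a type and less RNA per cell cannot be told apart. The labels do not say whether replicates were separate cultures, so p-values measure the spread between these libraries, which may be technical.

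Per kilobase of exon, the light chain of ferritin was the most abundant member at both MYC levels. FTL had group means of 5875 to 7897 normalized counts per kilobase, and FTH1 had 1501 to 2274. TFRC followed at 625 to 747 and NCOA4 at 432 to 508. On the same per-kilobase scale SLC39A14 had 55.2 to 182, IREB2 101 to 115, FLVCR1 52.4 to 86.1, ACO1 49.4 to 65.2, STEAP3 18.3 to 72.8 and SLC11A2 14.3 to 32.7. On this scale the order of FTL, FTH1, TFRC and NCOA4 was the same in all 4 groups, whereas SLC39A14 and IREB2 changed places between the MYC levels. The length used was that of all annotated exons of a gene together. For IREB2 this was 10806 bases, beside 6354 in the transcript searched above. The order of genes close in level can therefore change with the length used.

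**Figure D1:**
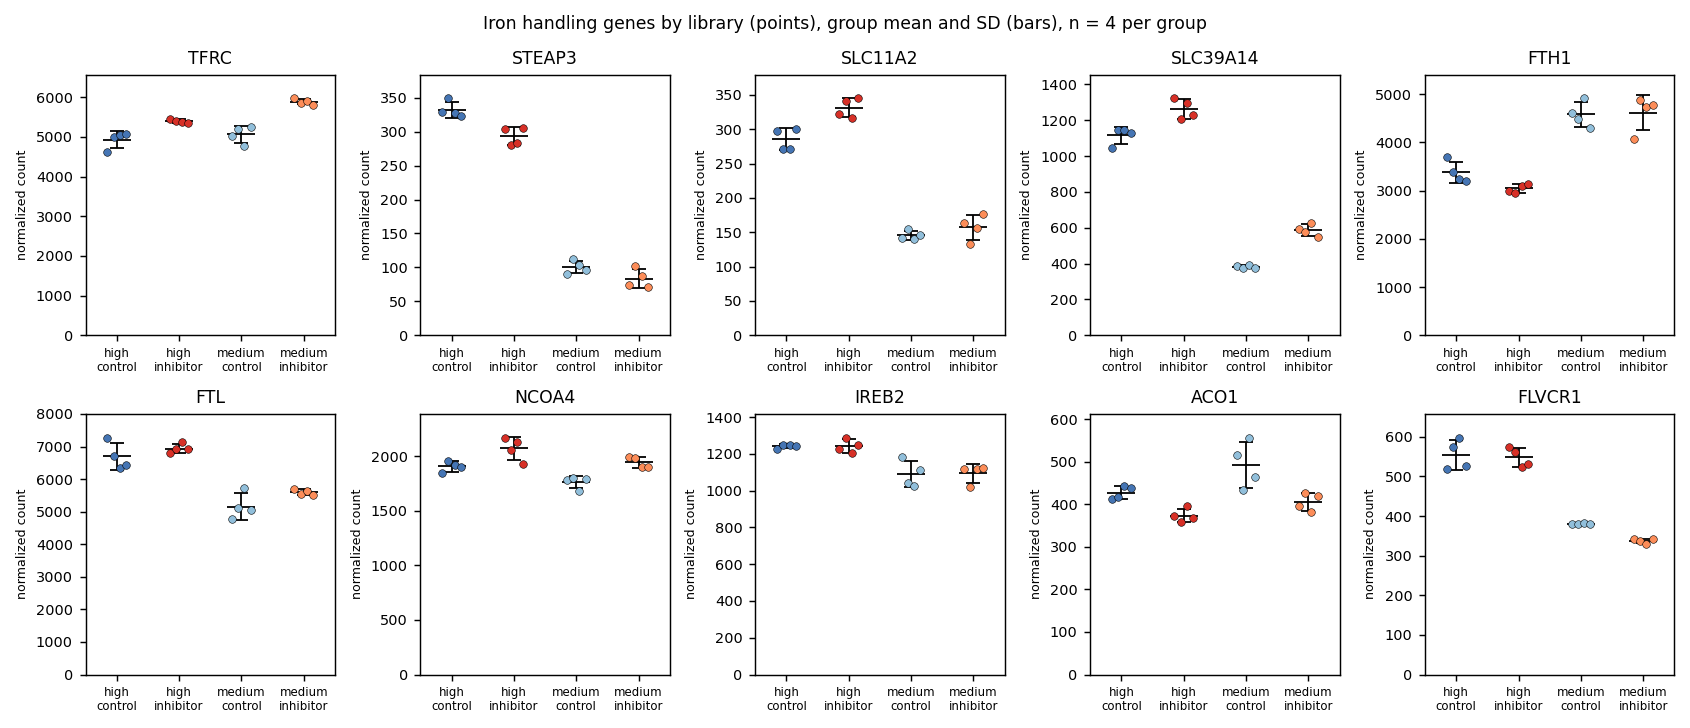
Normalized count of each of the 10 genes (vertical axes from 0) in the 4 groups, with 1 point per library and bars for the mean and SD of 4 libraries. STEAP3, SLC11A2, SLC39A14, FLVCR1 and FTL are lower at medium MYC and FTH1 is higher there, while inhibitor and control points lie close together for most genes.

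Between MYC levels, most of the 10 genes differed, and so did most genes. A gene is called changed here when its limma p-value, adjusted over all 13765 genes, is under 0.05. Among controls 9 of the 10 were called, 7 lower at medium MYC (STEAP3, SLC11A2, SLC39A14, FTL, NCOA4, IREB2 and FLVCR1) and 2 higher (FTH1 and ACO1). The background was 76.2% of all tested genes called, 37.3% lower and 38.9% higher, so the count of 9 is near the share of genes in general. Under the inhibitor 9 were also called, the same 7 lower and FTH1 with TFRC higher, against a background of 77.5% (37.8% lower, 39.7% higher). Libraries of the 2 MYC levels did not overlap for 8 genes among controls and 8 under the inhibitor, against 69.2% and 72.6% of all genes. The median log2 change of the 10 genes was -0.28 among controls and -0.25 under the inhibitor, beside 0.02 over all genes in both. Their median absolute log2 change was 0.41 and 0.45, beside 0.50 and 0.53 over all genes.

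On median, the 10 genes differed less between inhibitor and control than between MYC levels. At high MYC 6 of the 10 were called, TFRC, SLC11A2, SLC39A14 and NCOA4 higher and FTH1 and ACO1 lower, against a background of 26.8% (10.5% higher, 16.3% lower). At medium MYC 6 were called, TFRC, SLC39A14 and NCOA4 higher and STEAP3, ACO1 and FLVCR1 lower, against a background of 26.3% (11.7% higher, 14.6% lower). Inhibitor and control libraries did not overlap for 6 genes at high MYC (TFRC, STEAP3, SLC11A2, SLC39A14, FTH1 and ACO1) and for 5 at medium MYC (TFRC, SLC39A14, NCOA4, ACO1 and FLVCR1), against 26.7% and 27.9% of all genes. The 10 members all had a mean above 100, and the background among such genes was larger. With the filter at 100, 1106 of 9604 genes were higher and 2057 lower at high MYC, and 1469 and 1892 at medium MYC. The median absolute log2 change of the 10 was 0.14 at high MYC and 0.16 at medium MYC, beside 0.13 and 0.14 over all genes tested. The count at high MYC rests on single libraries: it was 2 without inhibitor replicate 1, 3 without inhibitor replicate 2 and 3 with no filter on low values. Only SLC39A14 was called for a difference in response between MYC levels, against a background of 8.63% of genes (3.31% higher and 5.33% lower at high MYC). Over all genes, the high MYC response had 1442 genes higher and 2247 lower, and after quantile normalization 1727 higher and 1770 lower. Lower thus stayed the more frequent direction at high MYC. At medium MYC the more frequent direction turned, from 1606 higher and 2012 lower to 1962 and 1658 with equal library totals. Quantile normalization gave 1963 and 1876 there. Between MYC levels among controls the direction turned from 5355 higher and 5130 lower to 5075 and 5526 with quantile normalization. Under the inhibitor it turned from 5462 and 5202 to 5101 and 5648 with that scaling.

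TFRC encodes the transferrin receptor, the main route of iron into the cell (ENSG00000072274, chromosome 3, 196027183 to 196082189 on GRCh38). The gene stood, at high MYC, at 4611, 4987, 5052 and 5081 normalized counts in the controls and at 5457, 5402, 5370 and 5361 with the inhibitor. At medium MYC it stood at 5017, 5206, 4775 and 5260.2 in the controls and at 5977, 5865, 5915 and 5809 with the inhibitor. Every inhibitor library was above every control library of its MYC level, and the controls of the MYC levels overlapped. TFRC rose by 0.13 on the log2 scale at high MYC (SE 0.03, limma adjusted p = 0.00432), an increase of 9.49%, and by 0.22 at medium MYC (SE 0.03, limma adjusted p = 2.30e-05), an increase of 16.4%. These rises passed the threshold under every alternative run. The responses differed by -0.09 (high minus medium, 95% interval -0.18 to 0.01, limma adjusted p = 0.277). Medium against high MYC gave 0.04 among controls (95% interval -0.03 to 0.11, limma adjusted p = 0.289) and a rise of 0.13 under the inhibitor (limma adjusted p = 0.00134). The control difference was called after quantile normalization (0.11, adjusted p = 0.00755) and after a GC correction (adjusted p = 0.00518), so its standing depends on the scaling.

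STEAP3 is the ferrireductase of endosomes (ENSG00000115107, chromosome 2, 119223831 to 119265652). STEAP3 had 329, 349, 328 and 323 normalized counts in the controls at high MYC and 304, 281, 284 and 306 with the inhibitor there. The medium MYC libraries of STEAP3 had 90.7, 112, 103 and 96.0 in the controls and 73.4, 101, 87.7 and 70.6 with the inhibitor. All high MYC libraries lay above all medium MYC libraries, the high MYC inhibitor libraries lay below their controls, and those at medium MYC overlapped. STEAP3 fell by 1.72 from high to medium MYC among controls (SE 0.10, limma adjusted p = 4.75e-13) and by 1.82 under the inhibitor (limma adjusted p = 1.63e-13), the widest gaps of the 10 genes. The inhibitor response was -0.28 at medium MYC (SE 0.10, limma adjusted p = 0.0369) and -0.18 at high MYC (95% interval -0.38 to 0.02, limma adjusted p = 0.189). The call at medium MYC was lost without control replicate 2 or 3 or inhibitor replicate 1 or 4 (adjusted p 0.0744 to 0.138) and under 7 of 14 other alternatives (0.0590 to 0.118). At high MYC the change was called when only the compared groups were fitted (adjusted p = 0.0289). The responses differed by 0.10 (95% interval -0.18 to 0.39, limma adjusted p = 0.745). An exon of STEAP3 overlaps STEAP3-AS1 on the opposite strand, whose mean was 0.6 normalized counts.

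SLC11A2 encodes DMT1, the proton-coupled carrier that moves ferrous iron out of endosomes (ENSG00000110911, chromosome 12, 50979401 to 51028566). At high MYC it had 297, 272, 272 and 301 normalized counts in the controls and 323, 342, 316 and 345 with the inhibitor. At medium MYC it had 142, 155, 140.0 and 145 in the controls and 163, 133, 157 and 176 with the inhibitor. The MYC levels were wholly apart, the inhibitor libraries were above the controls at high MYC, and they overlapped at medium MYC. SLC11A2 fell by 0.97 from high to medium MYC among controls (SE 0.08, limma adjusted p = 1.82e-10) and by 1.08 under the inhibitor (limma adjusted p = 2.76e-11). At high MYC it rose by 0.22 with the inhibitor (SE 0.08, limma adjusted p = 0.0423). That call was lost without control replicate 2 or 3 or inhibitor replicate 1, 2 or 4 (adjusted p 0.0606 to 0.110), with no filter (0.0678) and with a GC correction plus a replicate block (0.0511). At medium MYC its change was 0.11 (95% interval -0.05 to 0.27, limma adjusted p = 0.350), and the difference between the responses was 0.11 (95% interval -0.12 to 0.34, limma adjusted p = 0.625).

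SLC39A14 encodes ZIP14, a carrier of zinc, manganese and iron that takes up iron not bound to transferrin (ENSG00000104635, chromosome 8, 22367249 to 22434129). At high MYC it had 1047, 1146, 1146 and 1127 normalized counts in the controls and 1323, 1206, 1296 and 1232 with the inhibitor. At medium MYC it had 388, 375, 395 and 375 in the controls and 594, 575, 627 and 547 with the inhibitor. None of the 4 groups overlapped another. SLC39A14 rose by 0.18 with the inhibitor at high MYC (SE 0.05, limma adjusted p = 0.00557) and by 0.61 at medium MYC (SE 0.05, limma adjusted p = 1.68e-09), an increase of 52.5%. The response was smaller at high than at medium MYC by -0.43 (SE 0.06, 95% interval -0.56 to -0.29, limma adjusted p = 1.18e-04). Both rises and their difference were called under every alternative, with the difference between -0.46 and -0.40 throughout. From high to medium MYC it fell by 1.54 among controls (SE 0.05, limma adjusted p = 6.34e-18) and by 1.11 under the inhibitor (limma adjusted p = 1.81e-15). The inhibitor libraries at medium MYC stayed below those of the high MYC controls.

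**Figure D2:**
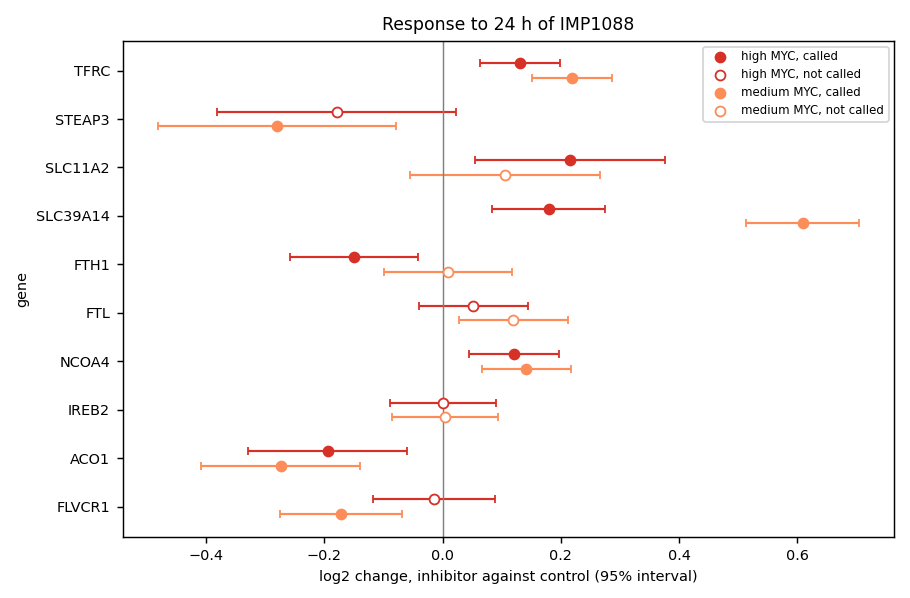
Log2 change from control to inhibitor for each gene (horizontal axis, 95% interval from limma), at high and at medium MYC, with filled points for called genes and open points for the others. SLC39A14 at medium MYC (0.61) stands apart from its value at high MYC (0.18), and TFRC, NCOA4 and ACO1 are called on the same side of 0 at both levels.

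FTH1 encodes the ferritin heavy chain, which oxidises iron for storage (ENSG00000167996, chromosome 11, 61959718 to 61967660). FTH1 had 3689.7, 3395, 3251 and 3199 normalized counts in the controls at high MYC and 3002, 2944, 3102 and 3138 with the inhibitor there. The medium MYC libraries of FTH1 had 4609, 4493, 4917 and 4302 in the controls and 4078, 4883, 4731 and 4772 with the inhibitor. All medium MYC libraries were above all high MYC libraries, and the medium MYC groups overlapped. FTH1 rose by 0.44 from high to medium MYC among controls (SE 0.05, limma adjusted p = 1.18e-07), an increase of 35.4%, and by 0.60 under the inhibitor (limma adjusted p = 7.91e-10). With the inhibitor it fell by 0.15 at high MYC (SE 0.05, limma adjusted p = 0.0369). That call was lost without control replicate 1 or 2 or inhibitor replicate 1, 2 or 3 (adjusted p 0.0523 to 0.142) and under 6 of 14 other alternatives (0.0524 to 0.152). These were equal library totals, quantile normalization, no filter, no mean trend, the replicate block and edgeR. At medium MYC the inhibitor response was 0.01 (95% interval -0.10 to 0.12, limma adjusted p = 0.923). The responses differed by -0.16 (95% interval -0.31 to -0.01, limma adjusted p = 0.212), and this was called without medium MYC inhibitor replicate 1 (-0.22, adjusted p = 0.0346). Pseudogenes named after FTH1 held 0.627% to 1.78% of the sum of FTH1 and pseudogene values, and reads between such copies could have been split. An exon of FTH1 overlaps BEST1 on the opposite strand, whose mean was 4.26.

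FTL encodes the ferritin light chain, which helps the iron core to form (ENSG00000087086, chromosome 19, 48965301 to 48966878). FTL had 7275, 6710.2, 6349 and 6443 normalized counts in the controls at high MYC and 6786, 6911, 7124 and 6912 with the inhibitor there. The medium MYC libraries of FTL had 4764, 5103, 5727 and 5039 in the controls and 5687, 5546, 5644 and 5496 with the inhibitor. The MYC levels were apart in both treatments, and inhibitor libraries overlapped the controls at each level. FTL fell by 0.38 from high to medium MYC among controls (SE 0.04, limma adjusted p = 1.06e-07) and by 0.31 under the inhibitor (limma adjusted p = 1.79e-06), in the other direction from FTH1. Its inhibitor response was 0.05 at high MYC (95% interval -0.04 to 0.14, limma adjusted p = 0.430) and 0.12 at medium MYC (95% interval 0.03 to 0.21, limma adjusted p = 0.0514). The medium MYC change was called without control replicate 3, whose value of 5727 was the highest of its group (adjusted p = 0.00146), and under 9 of 14 other alternatives (8.53e-05 to 0.0498). The high MYC change was called after a GC correction, with adjusted p = 0.00680, and with the replicate block added, 0.0101. The responses differed by -0.07 (95% interval -0.20 to 0.06, limma adjusted p = 0.597). Pseudogenes of FTL held 0.0367% to 0.284% of the sum with FTL.

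NCOA4 encodes the receptor that brings ferritin to the autophagosome (ENSG00000266412, chromosome 10, 46005088 to 46030714). At high MYC it had 1842, 1953, 1922 and 1904 normalized counts in the controls and 2170.1, 2059, 2133 and 1931 with the inhibitor. At medium MYC it had 1781, 1801, 1679 and 1788 in the controls and 1991, 1982, 1903 and 1899.7 with the inhibitor. Inhibitor libraries were higher at both levels, with inhibitor replicate 4 at high MYC inside the control range. NCOA4 rose by 0.12 at high MYC (SE 0.04, limma adjusted p = 0.0166) and by 0.14 at medium MYC (SE 0.04, limma adjusted p = 0.00544). The high MYC call was lost without control replicate 1 or inhibitor replicate 1 or 3 (adjusted p 0.0542 to 0.0704). The responses differed by -0.02 (95% interval -0.13 to 0.09). From high to medium MYC, NCOA4 fell by 0.11 among controls (limma adjusted p = 0.00795) and by 0.09 under the inhibitor (limma adjusted p = 0.0263). The latter call was lost without inhibitor replicate 1 or 3 of high MYC or 3 or 4 of medium MYC (adjusted p 0.0685 to 0.105), and with equal library totals, quantile normalization, no filter or no mean trend (0.0502 to 0.0741).

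**Figure D3:**
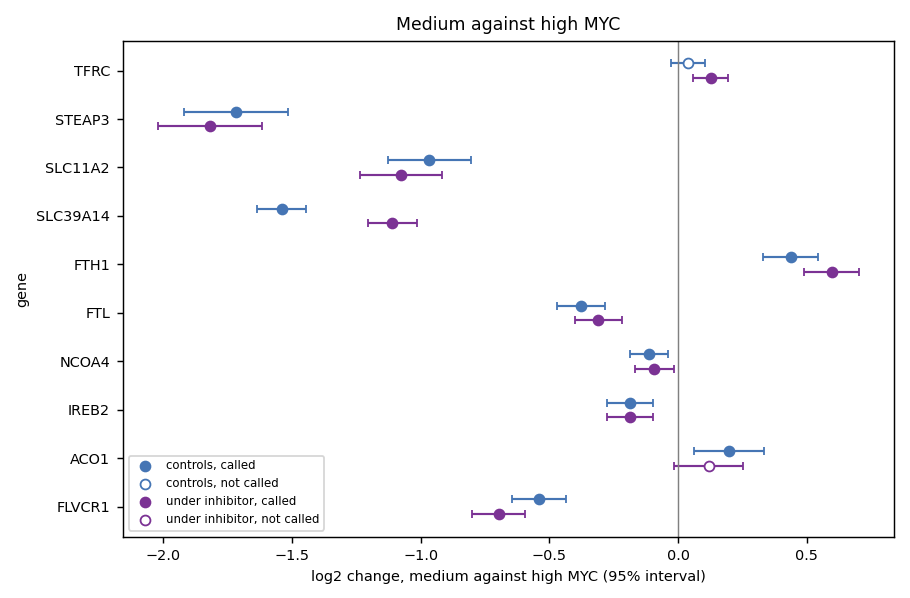
Log2 change from high to medium MYC for each gene (horizontal axis, 95% interval from limma), among controls and under the inhibitor, with filled points for called genes and open points for the others. STEAP3 and SLC39A14 lie farthest to the left, and FTH1 lies to the right of 0 while FTL lies to the left.

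The balance of ferritin chain mRNAs differed between MYC levels in every library. The ratio of FTH1 to FTL normalized counts was 0.507, 0.506, 0.512 and 0.496 in high MYC controls and 0.442, 0.426, 0.435 and 0.454 with the inhibitor. It was 0.968, 0.880, 0.858 and 0.854 in medium MYC controls and 0.717, 0.881, 0.838 and 0.868 with the inhibitor. The lowest medium MYC library lay above the highest at high MYC, the high MYC inhibitor libraries lay below their controls, and the medium MYC groups overlapped. Per kilobase of exon the mean ratio was 0.219 in high MYC controls and 0.385 in medium MYC controls, so the light chain mRNA was in excess in all groups. The size of this excess depends on the length used for FTH1, 2030 bases of exon beside 1229 in the transcript searched above. The ratio of TFRC to FTH1 averaged 1.47 ± 0.152 (SD, n = 4) in the high MYC controls and 1.77 ± 0.0627 with the inhibitor. At medium MYC it averaged 1.11 ± 0.108 and 1.28 ± 0.123. Inhibitor and control libraries did not overlap for this ratio at high MYC, and they overlapped at medium MYC. The ratio of TFRC to FTL went the other way between MYC levels. It averaged 0.740 ± 0.0747 in high MYC controls and 0.779 ± 0.0207 with the inhibitor. At medium MYC it averaged 0.988 ± 0.104 and 1.05 ± 0.00463. For TFRC to FTL, inhibitor and control libraries overlapped at both levels. The ferritin IREs act on translation, so neither ratio measures IRE activity. These ratios are descriptions of values tested gene by gene above.

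**Figure D4:**
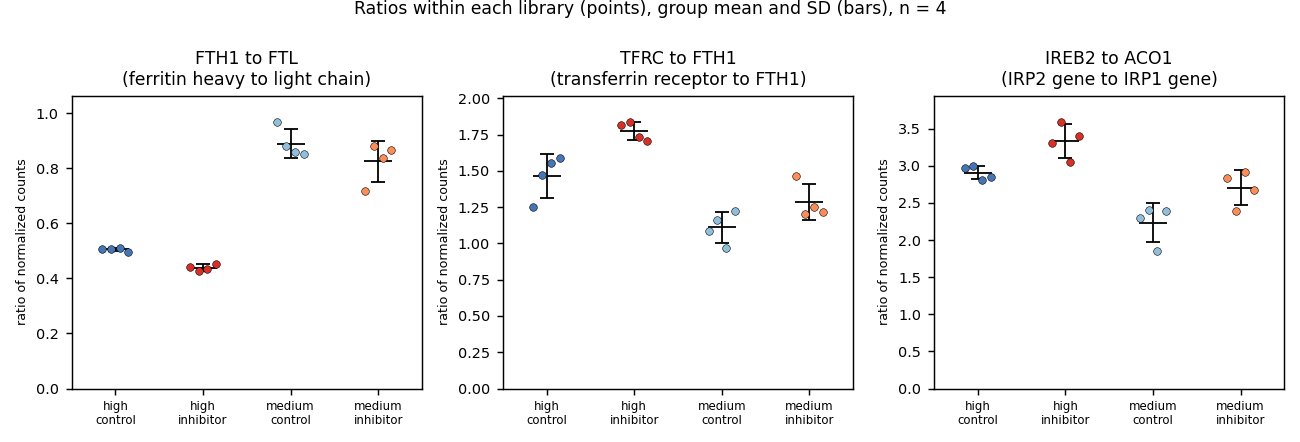
Ratios of normalized counts within each library (vertical axes from 0) for FTH1 to FTL, TFRC to FTH1 and IREB2 to ACO1, with 1 point per library and bars for the mean and SD of 4 libraries. FTH1 to FTL separates the MYC levels, at 0.505 and 0.890 on average in the controls, and IREB2 to ACO1 is lower at medium MYC in the controls.

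IREB2 encodes IRP2, the iron regulatory protein that is degraded when iron is plentiful (ENSG00000136381, chromosome 15, 78437431 to 78501456). IREB2 had 1226, 1248, 1247 and 1245 normalized counts in the controls at high MYC and 1228, 1289, 1204 and 1249 with the inhibitor there. The medium MYC libraries of IREB2 had 1184, 1040.2, 1027 and 1114 in the controls and 1117, 1018, 1117 and 1122 with the inhibitor. The inhibitor and control libraries overlapped at both levels, and all medium MYC libraries lay below the high MYC ones. IREB2 fell by 0.19 from high to medium MYC among controls (SE 0.04, limma adjusted p = 4.73e-04) and by 0.18 under the inhibitor (limma adjusted p = 5.46e-04). Its inhibitor response was 0.00 at both levels, with 95% intervals from -0.09 to 0.09, and the 95% interval of the difference between them was -0.13 to 0.12 (limma adjusted p = 0.987).

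ACO1 encodes IRP1, which works as cytosolic aconitase when it holds an iron-sulfur cluster and binds IREs when it does not (ENSG00000122729, chromosome 9, 32384603 to 32454769). ACO1 had 412, 417, 444 and 437 normalized counts in the controls at high MYC and 372, 359, 395 and 367 with the inhibitor there. The medium MYC libraries of ACO1 had 515, 433, 557 and 464 in the controls and 395, 426, 382 and 419 with the inhibitor. Inhibitor libraries were below controls at both levels with no overlap, while the MYC levels overlapped in both treatments. ACO1 fell by 0.19 at high MYC (SE 0.06, limma adjusted p = 0.0295) and by 0.27 at medium MYC (SE 0.06, limma adjusted p = 0.00284). The high MYC call was lost without control replicate 3 or 4 or inhibitor replicate 1, 2 or 4 (adjusted p 0.0584 to 0.0803), and under quantile normalization, no filter, no mean trend and DESeq2 (0.0505 to 0.0768). The medium MYC call held under every alternative. From high to medium MYC, ACO1 rose by 0.20 among controls (SE 0.06, limma adjusted p = 0.00862), and under the inhibitor its difference was 0.12 (95% interval -0.02 to 0.25, limma adjusted p = 0.0987). The inhibitor responses of ACO1 differed by 0.08 (95% interval -0.11 to 0.27, limma adjusted p = 0.688). The ratio of IREB2 to ACO1 normalized counts was 2.91 in high MYC controls, 3.33 with the inhibitor, 2.24 in medium MYC controls and 2.70 with the inhibitor, and per kilobase it was 2.03, 2.33, 1.56 and 1.89.

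FLVCR1 encodes a membrane transporter known for haem export and choline transport (ENSG00000162769, chromosome 1, 212858255 to 212899363). At high MYC it had 518, 574, 598 and 528 normalized counts in the controls and 575, 562, 523 and 532 with the inhibitor. At medium MYC it had 379.7, 381, 382 and 379 in the controls and 341, 337, 330.0 and 342 with the inhibitor. High and medium MYC were apart, and the inhibitor libraries lay below the controls at medium MYC and among them at high MYC. FLVCR1 fell by 0.54 from high to medium MYC among controls (SE 0.05, limma adjusted p = 2.02e-09) and by 0.70 under the inhibitor (limma adjusted p = 2.59e-11). It fell by 0.17 with the inhibitor at medium MYC (SE 0.05, limma adjusted p = 0.0125), a call that DESeq2 did not make (0.0577). At high MYC its response was -0.01 (95% interval -0.12 to 0.09, limma adjusted p = 0.865). The responses differed by 0.16 (95% interval 0.01 to 0.30, limma adjusted p = 0.192), which was not called.

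The promoters of the members were searched for CACGTG, the canonical E-box that MYC binds with its partner MAX, which reads the same on both strands. RefSeq promoter windows of 300 bases on GRCh38.p14, from 250 before to 50 after the start, were matched for 8 members, and FTH1 and SLC39A14 were not matched. None of the 13 windows of these 8 genes held the motif, and 7.26% of all 35116 windows did. This says only that these letters are not in these windows.

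Other iron genes, from a list of 79 in 7 roles with 63 tested, gave the setting of the 10. Among controls 22 were higher and 32 lower at medium MYC, with a median log2 change of -0.11, beside 76.2% of all genes called. Under the inhibitor 22 were higher and 29 lower, beside 77.5% of all genes. Both counts of 22 include BLVRA and FLVCR2, which passed the filter only through their medium MYC values. They also include STEAP1, which passed it largely through medium MYC. BLVRA had 0 to 7.82 normalized counts in high MYC controls and 36.0 to 50.9 in medium MYC controls. With the inhibitor 5 rose and 10 fell at high MYC, beside 26.8% of all genes called, and 7 rose and 14 fell at medium MYC, beside 26.3%. The difference in response was called for 3 of the 63, a count that ranged up to 8 under a GC correction, beside 8.63% of all genes. None of the 8 genes of export and systemic control was tested, and ferroportin (SLC40A1), the iron exporter, had a mean of 0.246 normalized counts.

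Genes of iron-sulfur cluster assembly were more often lower than higher at medium MYC, in the cytosol and in mitochondria alike. Of 10 cytosolic genes 6 fell and 2 rose among controls (median -0.24), and 7 fell and 2 rose under the inhibitor (median -0.22). Of 16 mitochondrial genes 10 fell and 3 rose among controls (median -0.31). Under the inhibitor 8 of these 16 fell, 4 rose and 4 were not called (median -0.24). Over all genes 37.3% fell and 38.9% rose among controls, and 37.8% and 39.7% under the inhibitor. ISCA1, a cluster carrier, went from 597 ± 33.4 normalized counts (SD, n = 4) in high MYC controls to 269 ± 7.17 in medium MYC controls, so it fell by 1.14 (SE 0.05, limma adjusted p = 6.91e-15), and LYRM4, a partner of the cysteine desulfurase, fell by 0.95 under the inhibitor (limma adjusted p = 7.30e-10). In the mitochondrial list 4 genes rose and 1 fell with the inhibitor at medium MYC, beside 11.7% and 14.6% of all genes. The scaffold ISCU went from 619.8 ± 28.01 to 816 ± 28.2 (SD, n = 4), a rise of 0.40 (SE 0.05, limma adjusted p = 9.30e-07), ISCA1 rose by 0.32 (limma adjusted p = 6.07e-05) and FDXR, a reductase, by 0.30 (limma adjusted p = 0.00629). At high MYC HSCB, a co-chaperone, rose by 0.34 (limma adjusted p = 0.0213) and FDXR by 0.22 (limma adjusted p = 0.0428), and NFU1, a cluster carrier, fell by 0.37 (limma adjusted p = 0.00345). The ISCU response was smaller at high MYC by -0.24 (limma adjusted p = 0.0205), a call lost without high MYC control replicate 2 or medium MYC control replicate 1. HSCB was lost without control replicate 4 or inhibitor replicate 1 or 3, and FDXR at high MYC under 10 of 22 alternatives (adjusted p up to 0.129).

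Among the 8 tested entry genes outside the 10 members, 6 were higher and 1 lower at medium MYC in controls (median 0.40). The shares over all genes were 38.9% and 37.3%. Under the inhibitor 5 were higher and none lower (median 0.26), against 39.7% and 37.8%. STEAP1 is counted as higher in both, but it passed the filter largely through medium MYC. It had 6.78 to 11.2 normalized counts in high MYC controls and 19.7 to 27.1 in medium MYC controls. The uptake members STEAP3, SLC11A2 and SLC39A14 were lower at medium MYC, and TFRC was not called among controls. Entry genes as a whole thus had no common direction. CYBRD1, a ferric reductase, had 15.5 ± 2.68 normalized counts (SD, n = 4) in high MYC controls and 92.6 ± 4.69 in medium MYC controls, a rise of 2.52 (SE 0.16, limma adjusted p = 2.31e-12), and it rose by 2.19 under the inhibitor (limma adjusted p = 2.57e-11). SLC39A8, the close relative of SLC39A14, fell with the inhibitor at medium MYC from 711 ± 23.2 to 512 ± 20.1 (SD, n = 4). This was a fall of 0.47 (SE 0.05, limma adjusted p = 3.63e-07), where SLC39A14 rose. SLC39A8 also fell at high MYC, by 0.34 (limma adjusted p = 3.11e-05), and SLC39A14 rose there too. MELTF, a transferrin-like membrane protein, fell with the inhibitor by 0.43 at medium MYC (limma adjusted p = 0.00267). At high MYC it fell by 0.29 (limma adjusted p = 0.0390). SCARA5, a ferritin receptor, differed in response by -0.46 (limma adjusted p = 0.0336), a call lost under 11 of 29 alternatives (up to 0.0974).

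Among haem handling genes, HMOX1, the haem oxygenase that frees iron from haem, rose from 71.6 ± 4.22 normalized counts (SD, n = 4) in high MYC controls to 150.1 ± 13.1 in medium MYC controls, by 1.06 (SE 0.13, limma adjusted p = 1.44e-07), and by 0.90 under the inhibitor (limma adjusted p = 1.52e-06). With the inhibitor at medium MYC it fell by 0.44 (limma adjusted p = 0.0127). SLC25A37, the mitochondrial iron importer mitoferrin, fell by 1.33 from high to medium MYC among controls (SE 0.05, limma adjusted p = 1.02e-16) and by 1.27 under the inhibitor (limma adjusted p = 2.14e-16). FLVCR2, the relative of FLVCR1, lay at 96.3 to 116 normalized counts in medium MYC controls and 104 to 121 with the inhibitor, but at 0 to 1.12 in high MYC controls and 1.11 to 5.20 with the inhibitor. Its level at high MYC was too low for a fold, and it was tested only through its level at medium MYC. It is counted among the genes called higher at medium MYC, among controls and under the inhibitor. Since it passed the filter only through medium MYC, those calls are not read as a result. It is also counted among the genes called for the inhibitor at high MYC and for the difference in response, but these calls rest on values of 0 to 5.20, with a high MYC estimate from 0.34 to 3.88 across alternatives, and are not read as a change. In plain values FLVCR2 was higher and FLVCR1 lower at medium MYC, and for FLVCR2 this is a description only. BLVRB, a biliverdin reductase, fell by 0.47 with the inhibitor at high MYC (limma adjusted p = 0.0327), a call lost under 11 of 21 alternatives (up to 0.111). CIAO3, of cytosolic cluster assembly, fell with the inhibitor by 0.45 at high MYC (limma adjusted p = 4.87e-05). It fell by 0.36 at medium MYC (limma adjusted p = 4.55e-04).

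**Figure D5:**
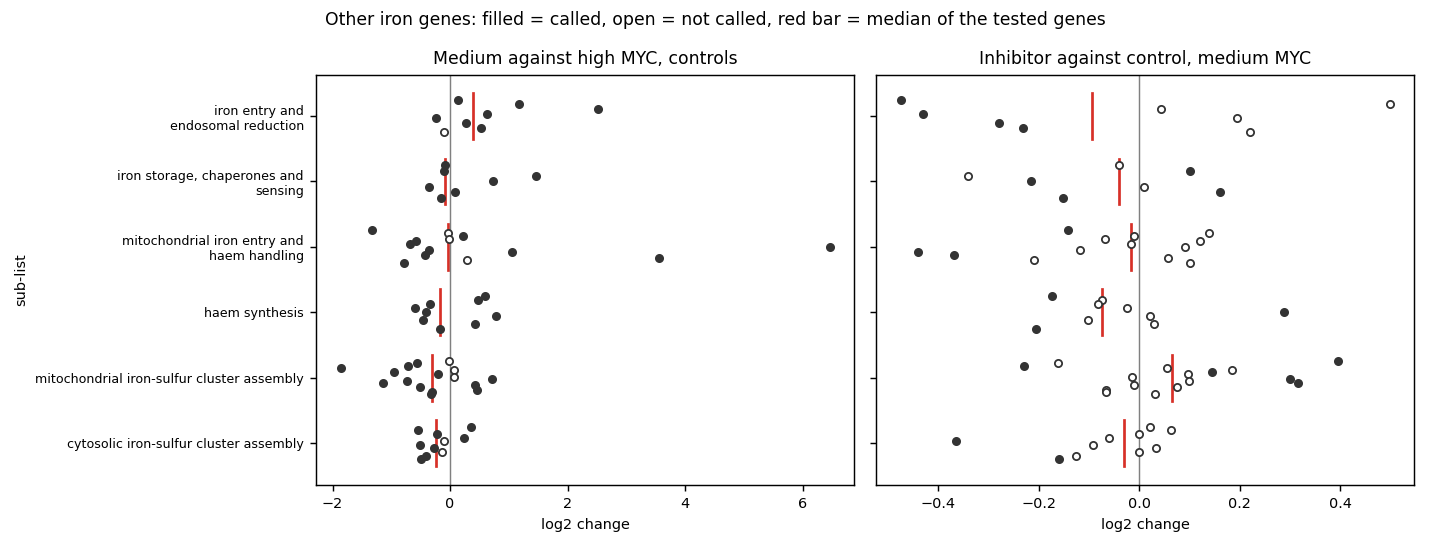
Log2 change of each tested gene of the wider iron list (horizontal axes) by role, from high to medium MYC among controls on the left and from control to inhibitor at medium MYC on the right, with filled points for called genes and a red bar at each median. On the left, mitochondrial iron-sulfur cluster genes have a median of -0.31 and entry genes 0.40. Filled points there include FLVCR2 and BLVRA, which passed the filter only through medium MYC, and STEAP1, which passed it largely that way. The axis on the right spans a much smaller range.

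The genes whose levels followed a member most closely were ranked by Pearson's r of log2 values among 9603 genes with a mean of at least 100. The 16 libraries share a scaling and fall into 2 MYC levels, so r was computed after each level's mean was subtracted. The shift from control to inhibitor was left in, so r also reflects the inhibitor responses given above. It is a description. For TFRC the highest were RSL24D1 (0.980), IKZF5 (0.976), HSPA13 (0.971), RPS18 (0.971) and RPS27A (0.969). Among the members SLC39A14 (0.883) and NCOA4 (0.881) were nearest to TFRC, and ACO1 was opposite at -0.85. For FTH1 RAVER1 (0.925), LTBP4 (0.911), H2AX (0.902) and ZNF865 (0.886) were among the 5 highest, and for NCOA4 the highest were PPP2R5C (0.953), RPL22 (0.935), RPS27A (0.932), LRP6 (0.923) and BCL2 (0.922). Without subtracting the level means the 5 highest included HSPA13, PIK3C3, GOLT1B, RRM2B and BET1 for TFRC, PIP5K1C, PLEKHM2, HLA-DMA, PGAP6 and PLXNB2 for FTH1, and LRP6, TPT1, MARCHF6 and TBC1D15 for NCOA4.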

How the data were processed

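The authors deposited 1 table of normalized counts, a non-negative expression signal for 58051 Ensembl identifiers in 16 libraries, made from 4 groups of 4. Per the submitters' processing notes, STAR 2.5.2a, RSEM 1.2.31, DESeq2 1.16.1 and GRCh38 were used, while their roles, the annotation and the use of strand are not given in the sources used here. Every value was a whole multiple of its library's step (100% within 1e-06 reads), which gave size factors of 0.858 to 1.33 and the reads behind each value. Symbols matched 56948 identifiers, and positions come from GENCODE 29, which held 57447.

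limma 3.58.1 in R 4.3.3 was fitted to log2 of the value plus 1, for 13765 genes (mean of 10 or more), with a mean trend and 4 group means in one fit. The table is normalized, so a log-scale test was the main one. Tests were two-sided with Benjamini-Hochberg adjustment over all 13765 genes at 0.05, and fold changes are on the log2 scale of value plus 1, which understates changes of low genes. The comparisons share libraries. Python 3.11.15 was used for summaries and matplotlib 3.10.9 for figures. The fit was tested on simulated data.

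Every member is named in every comparison. From the wider list, the 3 called genes with the largest change in each direction and a mean of at least 50 are named. A few genes that the rules select are not reported here. The members and lists were chosen with earlier results of these data known. Alternatives were 2 other scalings, 2 pseudocounts, 2 filters, no mean trend, the compared groups only, the replicate number as a block, edgeR 4.0.16 and DESeq2 1.42.0 on recovered reads, pseudogenes summed with FTH1 and FTL, and leaving out each library. A GC correction, with and without the block, was added after seeing the data. No protein sequences were used here.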

Additional observations from a re-analysis of the deposited data

Results flagged for a closer look

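In 3 of 40 sets of 4 libraries (10 genes in 4 groups) 1 library lay far from the others, where chance gives about 1 in 20. NCOA4 in medium MYC controls was lowest in replicate 3, at 1679 normalized counts, with the others at 1781 to 1801. IREB2 in high MYC controls was lowest in replicate 1, at 1226, with the others at 1245 to 1248. IREB2 in medium MYC inhibitor libraries was lowest in replicate 2, at 1018, with the others at 1117 to 1122. The response of SLC39A14 to the inhibitor differed between MYC levels by -0.43 on the log2 scale (high minus medium, limma adjusted p = 1.18e-04). At each level all 4 inhibitor libraries lay above all 4 control libraries.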

How the results depend on the processing

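Of the 50 results (10 genes in 5 comparisons), 32 kept their direction and their side of the threshold under every alternative and 18 did not. Leaving out 1 library gave 2 to 5 called members for the inhibitor at high MYC, 5 to 6 at medium MYC, 1 to 2 for the difference in response (2 without medium MYC inhibitor replicate 1), 9 for medium against high MYC in controls and 8 to 9 under the inhibitor. The high MYC inhibitor count was 3 with no filter. Reversals were seen only in changes that were not called. IREB2 at high MYC became -0.0481 with a GC correction, with and without the block, and ran from -0.0167 to 0.0159 without 1 library. IREB2 at medium MYC became -0.0448 with both GC settings and ran from -0.0240 to 0.0441. FLVCR1 at high MYC became 0.00294 with equal library totals and 0.0191 with quantile normalization, and ran from -0.0466 to 0.0223. FTH1 at medium MYC ran from -0.0201 to 0.0679. For the difference in response, NCOA4 ran from -0.0433 to 0.0127 and IREB2 from -0.0432 to 0.0249, with 0.00444 under quantile normalization. The cause of these changes was not tested.

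With a replicate block, the counts of called members were 5, 6, 1, 9 and 9 in the same order. Same-numbered libraries had mean residual correlations of -0.0715 and -0.0235 for the inhibitor at high and medium MYC. Between MYC levels the correlations were 0.0243 and -0.0182. At most 1 of 4 libraries correlated best with its own number. No strong effect shared by replicate number was thus seen. With 4 libraries per group this cannot show whether same-numbered libraries came from a shared culture or day. On recovered reads, edgeR called 1587 genes higher and 2116 lower for the inhibitor at high MYC and DESeq2 called 1331 and 1834, and at medium MYC edgeR called 1857 and 2001 and DESeq2 1481 and 1859. Low depth limits STEAP3 most, with 63 to 131 reads in medium MYC libraries.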
